A study of Rattus norvegicus with 6 samples.

Results

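Interferons are secreted proteins that warn tissue of infection, and the genes described here are the receptors for them, the proteins that carry their signal and the genes which that signal switches on. In the congenic kidney the interferon gamma receptor Ifngr1, the kinase Jak2, the transcription factor Irf1 and the immunity-related GTPase Irgm were higher than in S at their brightest or single probe set, by 1.28-fold (Irf1) to 1.58-fold (Jak2). The GTPase Igtp (1.87-fold), the kinase Jak1 (1.84-fold) and the receptor chains Ifngr2 (1.33-fold) and Ifnar1 (1.31-fold) were higher at 1 dimmer probe set each, while their brightest did not pass. The classical antiviral genes, among them Isg15, Mx1, Oas1a, Usp18 and the IFIT genes, did not pass the test, with log2 changes from -0.20 (Ifit2) to 0.12 (Ifit1) at the brightest probe set of each. Of all genes, 2.12% were higher and 2.67% lower at their brightest probe set. The calls rest on 3 rats a group and were lost once limma's model held a measure of RNA breakdown, as given further on. The genes were chosen by name, with earlier results of these data known, so the shares given for them are a description and not a test. They are 39 genes of interferon receptors, JAK-STAT and IRF signalling and their targets, with antigen presentation left out. Each gene was represented by every probe set that the array annotation assigns to it alone. That gave 54 of the 31042 probe sets tested and 38 of 14217 genes. Of these, 27 genes had 1 probe set and 11 had several, and Gbp5 had none among the probe sets used here. Ddx58, the RNA sensor RIG-I, is listed as Rig1 in the annotation.

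Kidneys were taken from 6 male rats born on 1 day, of which 3 belonged to the congenic strain S.LEW(10)x12x2x3x5 and 3 were Dahl salt-sensitive (S) controls, and the RNA of each was put on an Affymetrix Rat Expression 230 2.0 array of its own. Dahl S is an inbred model of salt-sensitive hypertension and of protein loss into the urine. The congenic strain has the S background with a piece of chromosome 10 from the Lewis rat, whose limits were not placed here. All were weaned at 30 days, shared cages in pairs of 1 congenic and 1 S rat, ate a 0.3% salt diet and were killed at 53 days. Whole kidney RNA was measured, so fewer cells of a type and less RNA per cell cannot be told apart. Markers of kidney epithelium were bright on all arrays, with Umod averaging 14.67, Slc34a1 14.03 and Lrp2 13.57 on the log2 scale. Array medians lay between 7.48 and 7.51. An array has no read depth, and the precision rests on 3 separate animals per group. S rat 2 stood apart from the other S rats in the tubule gene Slc12a3, at 9.50, against 12.42 and 11.73 in S rats 1 and 3. In the podocyte gene Nphs1 all 3 S rats differed, at 8.87, 5.67 and 6.90 in S rats 1 to 3. Without S rat 2, limma called 2 of the 8 member probe sets described next, those of Irf1 (0.39) and Igtp (0.86), and the changes of all 8 lay between 0.32 and 0.86.

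Type I interferons signal through Ifnar1 and its partner receptor chain, and interferon gamma, the type II interferon, through Ifngr1 and Ifngr2. The JAK kinases bound to these receptors phosphorylate STAT proteins, which enter the nucleus and bind either interferon-stimulated response elements, together with IRF9, or gamma-activated sites. Resident macrophages, endothelium and tubular epithelium of the kidney all carry these receptors.

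Of the 54 member probe sets 8 were higher in congenic rats and 0 were lower (limma, Benjamini-Hochberg adjusted p under 0.05 over all probe sets). That is 14.8% higher, against 3.47% of all probe sets higher and 2.53% lower. The 2 member probe sets lower at an unadjusted p under 0.05 were those of Stat2 and Isg20. The 8 calls fell in 8 genes, 21.1% of the 38, against 5.88% of all genes with any probe set called higher. With each gene represented by its brightest probe set (the highest mean over 6 arrays), 4 of 38 genes were higher (10.5%, against 2.12% of all genes) and 0 were lower (against 2.67%). The median log2 change of the member probe sets was 0.07, against -0.02 for all probe sets. The 3 congenic values all lay above the 3 S values in 18 member probe sets (against 12.7% of all probe sets) and all below them in 4 (against 18.4%), together 40.7% of members, against 31.2% of all probe sets. All 8 calls were lost without congenic rat 2 or without S rat 3, where limma called 0 of all 31042 probe sets, with 5575 and 6968 at an unadjusted p under 0.05. Between 1 and 2 of the 8 were called without congenic rat 1, congenic rat 3 or S rat 2, and all 8 had a positive change under every alternative that kept them.

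**Figure D1:**
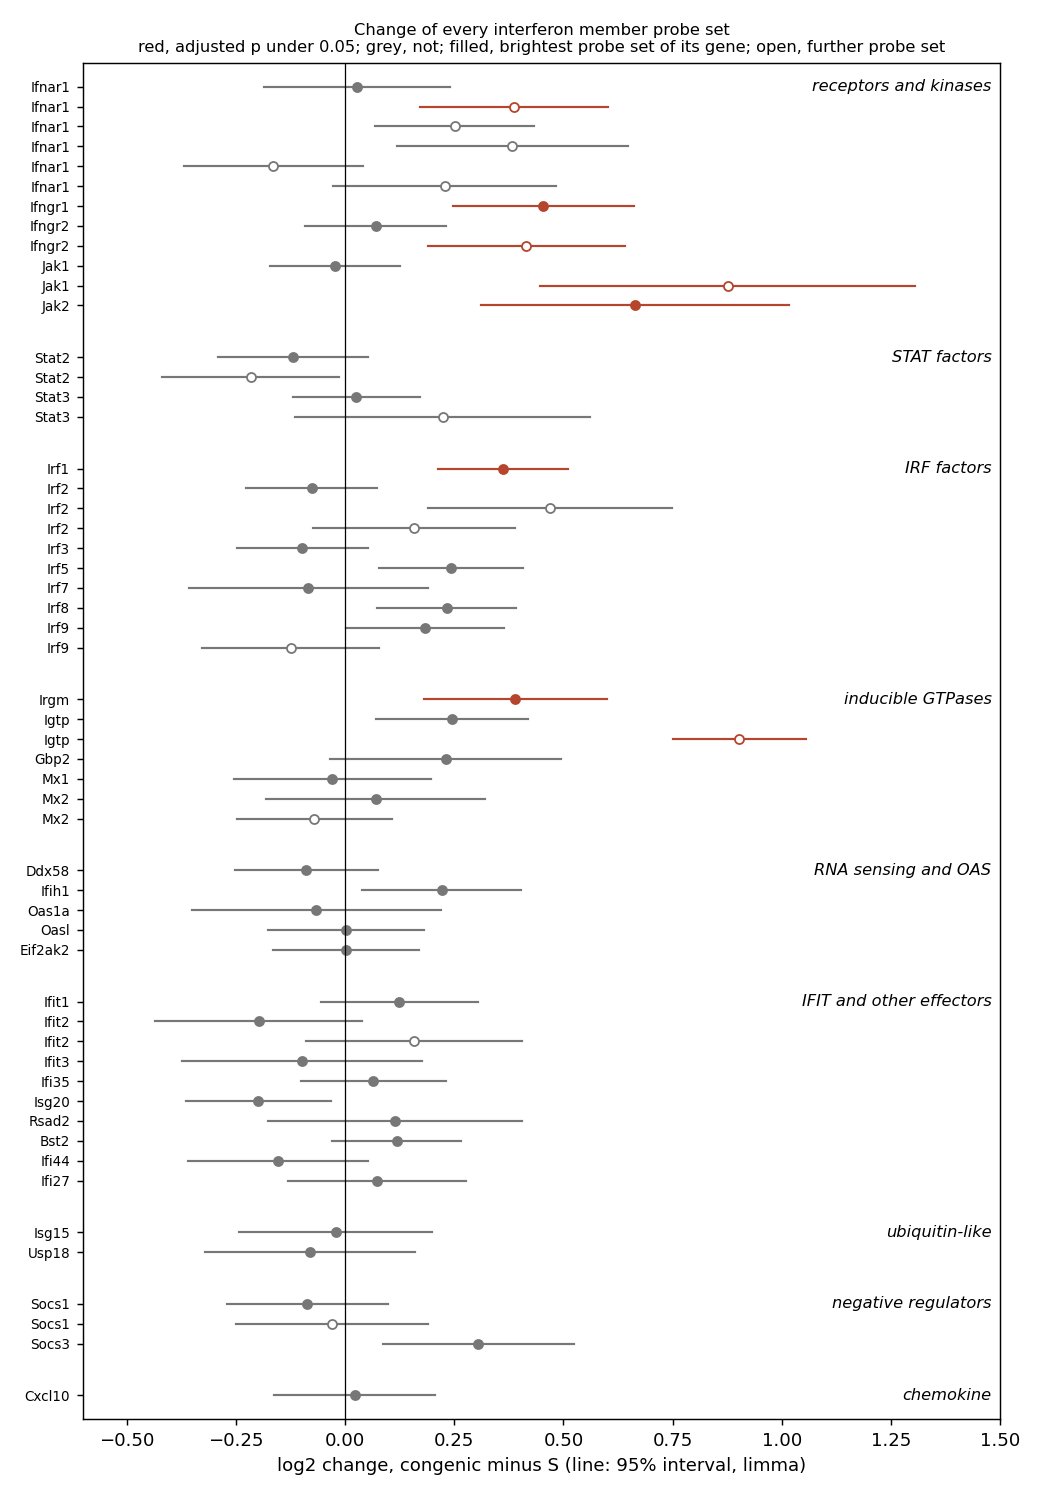
Log2 change between congenic and S kidneys (x axis) for all 54 member probe sets, grouped by role, with 95% intervals from limma. The 8 red probe sets passed the test and all lie right of 0, between 0.36 and 0.90, while the intervals of Isg15, Mx1 and Oas1a include 0.

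The receptor and kinase genes held 5 of the 8 calls. At the brightest probe set 2 of these 5 genes passed, against 2.12% of all genes, and 3 were called at a dimmer probe set only. Ifngr1, the ligand-binding chain of the interferon gamma receptor, had log2 intensities of 10.76, 10.60 and 10.81 in congenic rats 1 to 3, against 10.41, 10.14 and 10.25 in S rats 1 to 3. Every congenic value lay above every S value, and the change was 0.45 ± 0.09 (SE, limma adjusted p = 0.0333, 1.37-fold). Jak2, a kinase of the interferon gamma receptor and of several cytokine receptors, stood at 7.54, 7.61 and 7.90 in congenic rats and at 7.37, 6.86 and 6.83 in S rats. The groups did not overlap, although S rat 1 came close, and the change was 0.66 ± 0.15 (SE, limma adjusted p = 0.0447, 1.58-fold). Without S rat 1 it was 0.84.

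For Ifngr2, Ifnar1 and Jak1 the probe sets disagreed. Ifngr2, the signalling chain of the interferon gamma receptor, had a change of 0.07 at its brightest probe set (limma adjusted p = 0.603). Its dimmer probe set was at 6.66, 6.75 and 6.63 in congenic rats and 6.28, 6.06 and 6.45 in S rats, and rose by 0.42 ± 0.10 (SE, adjusted p = 0.0471, limma, 1.33-fold). Jak1, a kinase shared by both interferon receptors, was nearly equal at its brightest probe set, with values from 11.95 to 12.03 in congenic rats and from 11.96 to 12.08 in S rats. Its other probe set was at 9.38, 9.36 and 9.52 in congenic rats and at 9.02, 8.15 and 8.46 in S rats. That is a rise of 0.88 ± 0.19 (SE, limma adjusted p = 0.0379, 1.84-fold), with an SD of 0.09 in congenic and 0.44 in S rats. Ifnar1, one chain of the type I receptor, had 6 probe sets. The brightest had a change of 0.03 (adjusted p = 0.898, limma). Another was at 8.24, 8.06 and 8.25 in congenic rats and 7.97, 7.69 and 7.72 in S rats, without overlap, and rose by 0.39 ± 0.09 (SE, limma adjusted p = 0.0497, 1.31-fold). The changes of the other 4 lay between -0.16 and 0.38 and did not pass.

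**Figure D2:**
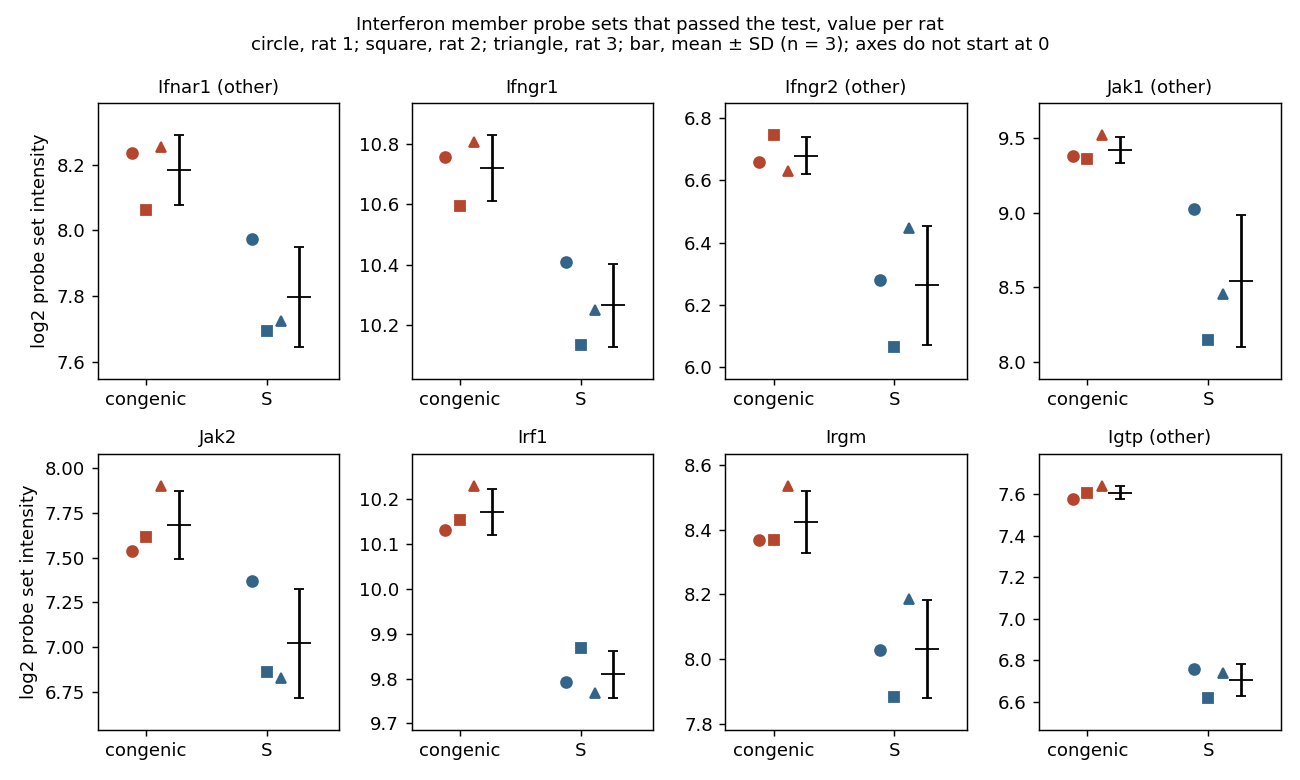
Log2 intensity (y axis, not from 0) in each of the 3 congenic and 3 S rats for the 8 member probe sets that passed, with mean ± SD. In every panel the congenic values lie above the S values, and for Jak1 the congenic rats lie closer together than the S rats, with SDs of 0.09 in congenic and 0.44 in S rats.

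None of the STAT genes passed. Stat2, which joins IRF9 in the type I interferon complex, was at 9.57, 9.54 and 9.60 in congenic rats and 9.63, 9.82 and 9.61 in S rats at its brightest probe set, a change of -0.12 (limma adjusted p = 0.375). Its second probe set had a change of -0.22 (limma adjusted p = 0.172). In both, all congenic values lay below all S values, as in 18.4% of all probe sets. Stat3, a factor of the interleukin 6 family, was at 11.18, 11.22 and 11.26 in congenic and 11.17, 11.25 and 11.16 in S rats (change 0.03), and at 0.22 on a second probe set.

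Of the 7 IRF genes, Irf1 alone passed at its brightest probe set. Irf1, a factor induced by interferon gamma that drives many of its targets, was at 10.13, 10.15 and 10.23 in congenic rats and at 9.79, 9.87 and 9.77 in S rats. The SD was 0.05 in each group, and the change was 0.36 ± 0.07 (SE, limma adjusted p = 0.0275, 1.28-fold). Its antagonist Irf2 had a change of -0.08 at the brightest probe set and 0.47 (limma adjusted p = 0.0584) and 0.16 at dimmer ones. Irf8, a factor of myeloid cells, had a change of 0.23 (adjusted p = 0.0809), Irf5, a factor of macrophage activation, 0.24 (adjusted p = 0.0799), and Irf9, the DNA-binding part of the type I complex, 0.18 (adjusted p = 0.191). In these 3 genes all congenic values lay above all S values at the brightest probe set, as in 12.7% of all probe sets. Limma's test was not passed, and the second probe set of Irf9 had a change of -0.12. Irf3, which is activated in the first wave of type I induction, was at 11.39, 11.29 and 11.29 in congenic rats and 11.38, 11.48 and 11.41 in S rats (change -0.10). Irf7, the amplifier of the type I response, had a change of -0.08, with values that overlapped.

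Of the interferon-inducible GTPases, Irgm and 1 of the 2 probe sets of Igtp were higher, and Gbp2, Mx1 and Mx2 did not pass. Irgm and Igtp belong to the immunity-related GTPases, which in mice act at the membranes around intracellular parasites and bacteria and are strongly induced by interferon gamma. Irgm was at 8.37, 8.37 and 8.53 in congenic rats and 8.03, 7.88 and 8.19 in S rats, a rise of 0.39 ± 0.09 (SE, limma adjusted p = 0.0464, 1.31-fold). Igtp had the smallest adjusted p of all member probe sets. At that probe set it was at 7.58, 7.61 and 7.64 in congenic rats and at 6.76, 6.62 and 6.74 in S rats, a rise of 0.90 ± 0.07 (SE, limma adjusted p = 0.00511, 1.87-fold). The gap between the groups was several times the spread within either, with SDs of 0.03 in congenic and 0.08 in S rats. The brighter probe set of Igtp was at 9.81, 9.75 and 9.98 in congenic rats and 9.64, 9.61 and 9.55 in S rats. There too all congenic values lay above all S values, as in 12.7% of all probe sets. The change of 0.24 ± 0.08 (SE) did not pass (limma adjusted p = 0.0905). Igtp, Irgm2 and Igtpl1 are near relatives that share a further probe set, which was left out by the rule and had a change of -0.04, so how far each gene contributes to such probe sets is uncertain.

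The other GTPases did not pass. Gbp2, a guanylate-binding protein induced by interferon gamma, was at 9.60, 9.74 and 9.81 in congenic rats and 9.34, 9.75 and 9.37 in S rats, where S rat 2 stood with the congenic rats (change 0.23, limma adjusted p = 0.257). Mx1 and Mx2, dynamin-like GTPases of the type I response, had changes of -0.03 and 0.07 at their brightest probe sets, and Mx2 -0.07 at a very dim one. For Mx1 the 95% interval ran from -0.25 to 0.20.

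The promoters of the called genes show which interferon response letters they hold. They were read from RefSeq (GRCr8) as 300 bases, 250 before and 50 after the start of the gene, and 31 of the 39 genes had an entry. The core of the interferon-stimulated response element, GAAA followed by any 2 bases and GAAA again, and the gamma-activated site, TTCNNNGAA, were looked for on both strands. Matches of both kinds were counted also where they overlap, as they do in Bst2. The first motif was in 16 of the 31 member promoters (51.6%), against 3.92% of 33469 promoters, and the second in 8 (25.8%), against 8.87%. Both were in 5 members (16.1%, against 0.514%), namely Irgm, Igtp, Oas1a, Bst2 and Socs1. The promoters of Irf1, Igtp and Irgm, the called genes with a match, are given whole, with the matches in capitals. They read along the gene from left to right, from chr10:38417685-38417984 (plus strand) for Irf1, chr10:42874797-42875096 (plus strand) for Igtp and chr10:33742529-33742828 (minus strand) for Irgm.
Irf1: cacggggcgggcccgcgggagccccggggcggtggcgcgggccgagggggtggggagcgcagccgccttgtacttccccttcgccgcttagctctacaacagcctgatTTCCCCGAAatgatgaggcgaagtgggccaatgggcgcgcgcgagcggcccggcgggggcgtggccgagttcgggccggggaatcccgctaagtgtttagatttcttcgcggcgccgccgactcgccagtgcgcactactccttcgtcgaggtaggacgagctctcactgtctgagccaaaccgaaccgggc
Igtp: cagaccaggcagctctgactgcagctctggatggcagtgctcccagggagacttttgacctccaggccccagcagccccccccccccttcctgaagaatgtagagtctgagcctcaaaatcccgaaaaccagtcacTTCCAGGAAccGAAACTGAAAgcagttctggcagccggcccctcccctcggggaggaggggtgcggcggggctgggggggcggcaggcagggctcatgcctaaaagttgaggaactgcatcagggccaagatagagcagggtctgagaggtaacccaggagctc
Irgm: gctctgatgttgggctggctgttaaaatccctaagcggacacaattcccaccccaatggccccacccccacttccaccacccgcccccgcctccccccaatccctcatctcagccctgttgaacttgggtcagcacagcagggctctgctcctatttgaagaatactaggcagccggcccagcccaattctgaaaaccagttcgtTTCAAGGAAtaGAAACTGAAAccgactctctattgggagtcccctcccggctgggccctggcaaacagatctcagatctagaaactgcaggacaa

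In Igtp and Irgm the gamma-activated letters stand 2 bases before the interferon-stimulated element, beginning 114 bases before the start in Igtp and 45 in Irgm, whereas Irf1 has the gamma-activated letters only, 142 bases before its start. After this arrangement had been seen it was looked for in all promoters, as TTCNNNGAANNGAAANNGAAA on either strand. It was in 7 of 33469 (0.021%). LOC134480693 is one of them and shares its stretch with Igtp, on the other strand. The others were Irgm2, Parp14, Ifgga2l2 and Stra8. Irgm2 and Parp14, which the array measured, are shown with the arrangement in capitals, at chr10:42889837-42889897 and chr11:78408027-78408087, both on the plus strand of GRCr8.
Irgm2: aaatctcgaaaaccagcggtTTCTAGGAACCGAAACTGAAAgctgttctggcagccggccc
Parp14: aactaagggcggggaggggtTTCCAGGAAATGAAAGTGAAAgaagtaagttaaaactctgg

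Of the 7 genes with the arrangement, 4 had probe sets here, and each had at least 1 that was higher in congenic rats, 5 of 6 probe sets in all (of all genes 5.88% had any probe set higher, and of all probe sets 3.47% were higher). Irgm2, a relative of Irgm, was at 10.90, 10.79 and 10.97 in congenic rats and 10.58, 10.55 and 10.55 in S rats (change 0.33 ± 0.07 SE, limma adjusted p = 0.0372). Parp14, an ADP-ribosyltransferase, was at 9.84, 9.84 and 9.97 in congenic rats and 9.57, 9.66 and 9.55 in S rats (change 0.29 ± 0.07 SE, adjusted p = 0.0483, limma), and rose by 0.73 at its dimmer probe set. Igtp and Irgm served to define the arrangement, Igtp, Irgm and Irgm2 are related genes, and the search followed the values, so these counts are a description. The letters do not show that a factor is bound there.

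Oas1a, Bst2 and Socs1 hold both motifs in the same order at another spacing, and none of them passed. Of all genes 5.88% had any probe set higher, so this too is a description and not a test. Their stretches are given in that order with matches in capitals, from chr12:41330256-41330455 (plus strand), chr16:18255058-18255117 (minus strand) and chr10:5389364-5389503 (plus strand) of GRCr8.
Oas1a: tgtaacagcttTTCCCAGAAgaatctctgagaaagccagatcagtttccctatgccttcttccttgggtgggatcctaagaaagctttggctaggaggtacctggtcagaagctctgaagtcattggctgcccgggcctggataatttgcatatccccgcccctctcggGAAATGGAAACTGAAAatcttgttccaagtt
Bst2: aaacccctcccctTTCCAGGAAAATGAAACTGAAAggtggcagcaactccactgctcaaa
Socs1: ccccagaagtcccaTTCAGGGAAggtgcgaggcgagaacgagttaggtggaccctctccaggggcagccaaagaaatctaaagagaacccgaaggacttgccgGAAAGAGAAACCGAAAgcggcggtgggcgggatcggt

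Over the measured members, 3 of 8 genes with the gamma-activated letters had a called probe set (Irf1, Igtp and Irgm), 2 of 15 with the interferon-stimulated letters (Igtp and Irgm) and 4 of 12 with neither (Ifnar1, Ifngr1, Ifngr2 and Jak2), where 5.88% of all genes had any probe set higher. At the brightest probe set the counts were 2 of 8, 1 of 15 and 2 of 12, against 2.12% of all genes. The median log2 change at the brightest probe set was 0.21 over the 8 genes, 0.02 over the 15 and 0.05 over the 12. Jak1 was not in the promoter table.

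The RNA sensors and the OAS genes did not pass. Ddx58 was at 10.44, 10.62 and 10.62 in congenic rats and 10.64, 10.67 and 10.64 in S rats (change -0.09, limma adjusted p = 0.501). Ifih1, the sensor MDA5, was at 6.37, 6.58 and 6.49 in congenic rats and 6.34, 6.16 and 6.27 in S rats (change 0.22, adjusted p = 0.125, limma). All its congenic values lay above all S values, as in 12.7% of all probe sets. Oas1a, which makes the second messenger that activates RNase L, had a change of -0.07, its relative Oasl 0.0031, and Eif2ak2, the RNA-activated kinase PKR, 0.0026. In these 3 genes the congenic and S values overlapped.

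Among the 9 IFIT and other effector genes 0 passed, where 2.12% of all genes were higher and 2.67% lower at the brightest probe set. The log2 changes of the 9 at that probe set ran from -0.20 to 0.12, with 95% intervals within -0.44 and 0.40. Ifit2, an RNA-binding protein that blocks viral translation, was at 9.49, 9.46 and 9.60 in congenic rats and 9.48, 9.85 and 9.82 in S rats (change -0.20, limma adjusted p = 0.279), and its other probe set had a change of 0.16. Isg20, a nuclease that degrades viral RNA, was at 7.00, 6.86 and 6.99 in congenic rats and 7.08, 7.23 and 7.14 in S rats. All its congenic values lay below the S values, as in 18.4% of all probe sets, and the change of -0.20 did not pass (limma adjusted p = 0.130). Ifi27, a mitochondrial protein of the type I response, was at 12.59, 12.55 and 12.78 in congenic rats and 12.46, 12.69 and 12.55 in S rats (change 0.07). The changes were 0.12 for Ifit1, -0.10 for Ifit3, 0.07 for Ifi35, 0.11 for the antiviral enzyme Rsad2, 0.12 for the tether Bst2 and -0.15 for Ifi44. Bst2 was the single gene of these 6 whose groups did not overlap, with 9.33, 9.43 and 9.42 in congenic rats and 9.23, 9.29 and 9.30 in S rats. All congenic values lay above all S values in 12.7% of all probe sets.

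Isg15, the ubiquitin-like protein that is attached to other proteins in the type I response, was at 9.06, 9.13 and 9.38 in congenic rats and 9.09, 9.27 and 9.26 in S rats. The change was -0.02, with a 95% interval from -0.24 to 0.20 (limma adjusted p = 0.927). Usp18, which removes Isg15 from proteins and dampens type I receptor signalling, was at 8.50, 8.48 and 8.77 in congenic rats and 8.50, 8.79 and 8.70 in S rats (change -0.08). For both genes the values of the groups overlapped. Cxcl10, a chemokine induced by interferon gamma that draws T cells, was at 8.61, 8.64 and 8.74 in congenic rats and 8.50, 8.67 and 8.75 in S rats (change 0.02, limma adjusted p = 0.904).

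Of the feedback inhibitors of JAK kinases, Socs3 was at 7.37, 7.38 and 7.70 in congenic rats and 7.21, 7.15 and 7.19 in S rats. All congenic values lay above all S values, as in 12.7% of all probe sets, with congenic rat 3 the highest. The change of 0.31 ± 0.10 (SE) did not pass (limma adjusted p = 0.0917). Socs1, the inhibitor most tied to interferon gamma, had a change of -0.09, and -0.03 at a dim second probe set.

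In Mx1, Oas1a, Irf7, Isg15 and Usp18 the SD within each group was larger than the change between the groups. All 5 were highest among congenic kidneys in rat 3 and lowest among S kidneys in rat 1. Over the 38 genes, congenic rat 3 was the highest congenic rat in 24 (63.2%, against 29.4% of all genes), and S rat 1 was the lowest S rat in 20 (52.6%, against 39.2%). The 5 genes were singled out after their values were seen. Ifngr1, Irf1 and Igtp kept congenic and S rats apart, as 31.2% of all probe sets did in either direction. They were picked as genes with a called probe set, so this is a description.

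**Figure D3:**
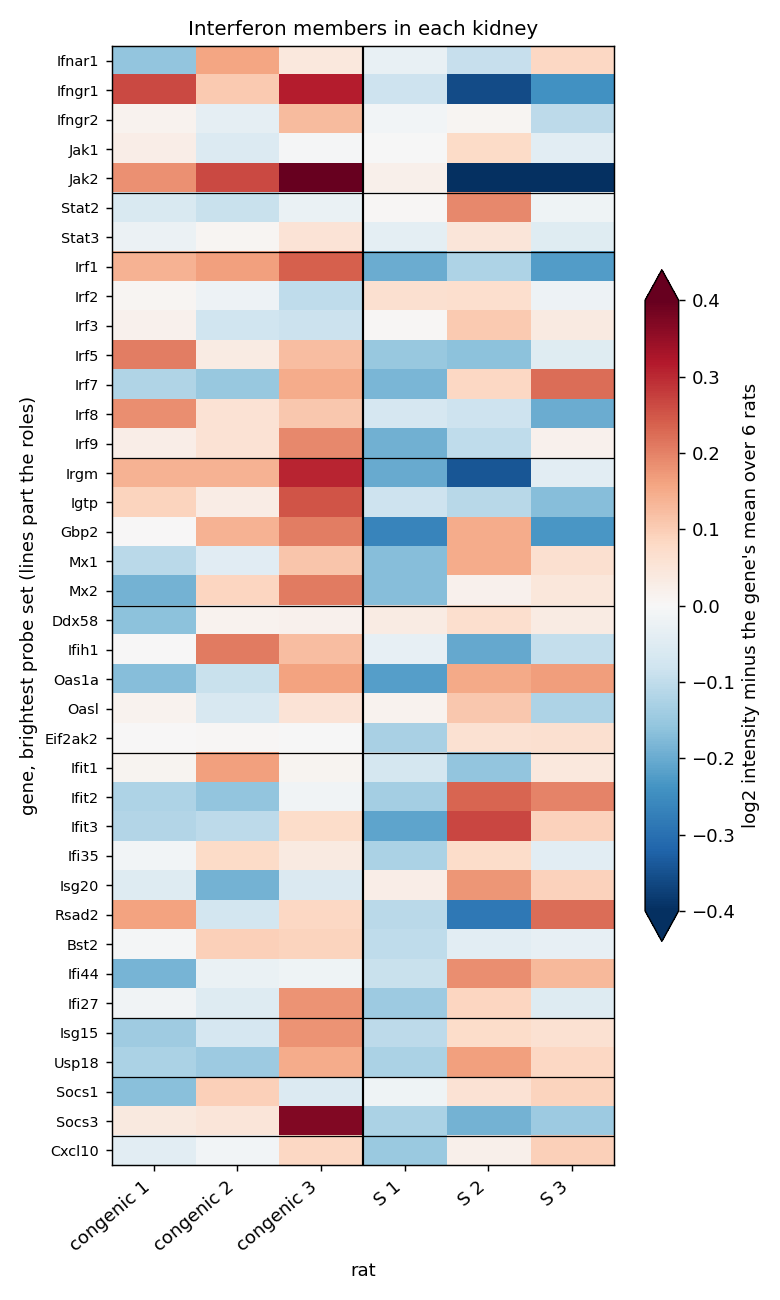
Log2 intensity minus the gene's mean over the 6 rats (colour) for the brightest probe set of each of 38 genes (rows) in 3 congenic and 3 S kidneys (columns). Ifngr1, Jak2, Irf1, Irgm and Igtp are red or pale in the congenic and blue or pale in the S columns, and Isg15, Mx1 and Usp18 vary within both groups.

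Irf1, Irgm, Igtp, Stat3, Ifi35, Socs1 and Socs3 lie on chromosome 10, the chromosome of the congenic segment. Of the 10 probe sets of these 7 genes 3 were called higher, with a median change of 0.23, against 5 of 44 with a median of 0.05 for the members on other chromosomes. Over all probe sets 3.47% were higher, and the median change was -0.02. At the brightest probe set 2 of the 7 genes were higher, against 2 of 31 members on other chromosomes, and of all 1213 measured genes of chromosome 10, 24 were higher and 26 lower. In the order of measured genes on the chromosome, Stat3 stood 230, Ifi35 252, Igtp 340, Irf1 377, Irgm 434, Socs3 451 and Socs1 660 genes away from Rffl, an endosomal ubiquitin ligase gene known from work on this segment. Sequence differences between Lewis and S rats under the probes were not analysed here.

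Of 107 other genes of interferon signalling and response, listed by name, 74 were measured by 105 probe sets. Of these 7 were higher (6.67%, against 3.47% of all probe sets) and 0 lower, where 7 were lower at an unadjusted p under 0.05 (limma), and the median change was 0.02. Congenic and S values did not overlap in 26.7% of the 105 probe sets, the 7 called among them, against 31.2% of all. At the brightest probe sets Irgm2, Parp14, Lgals3bp and Ccl5 passed. Lgals3bp, a secreted glycoprotein induced by interferon, was at 11.09, 11.10 and 11.29 in congenic rats and 10.74, 10.71 and 10.82 in S rats (change 0.40 ± 0.08 SE, adjusted p = 0.0313, limma). Ccl5, a chemokine for T cells and monocytes, was at 8.30, 7.85 and 8.24 in congenic rats and 7.57, 7.56 and 7.68 in S rats (change 0.53 ± 0.12 SE, limma adjusted p = 0.0406). Adar, an RNA editing enzyme, was at 8.01, 8.11 and 8.31 in congenic rats and 7.65, 7.57 and 7.68 in S rats at its dimmest probe set (change 0.51 ± 0.09 SE, limma adjusted p = 0.0244), and had a change of 0.07 at both others. Cish, an inhibitor of cytokine signalling, was at 7.87, 8.43 and 8.95 in congenic rats and 7.26, 7.10 and 6.99 in S rats at its dimmer probe set (change 1.30 ± 0.23 SE, adjusted p = 0.0257, limma), and had a change of 0.42 (adjusted p = 0.0614) at its brighter one. The receptor partner Ifnar2 (-0.15) and the kinase Tyk2 (-0.05) did not pass, nor did the probe sets of the interferons themselves, with Ifng at means of 4.63 in congenic and 4.67 in S rats and Ifnb1 at means of 5.80 in congenic and 5.83 in S rats, all below the lower quartile of mean intensity (5.92).

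Some macrophage markers moved with the called genes. Of 16 macrophage and monocyte markers 4 were higher at their brightest probe set (Cd14, Lyz2, C1qa and C1qb), against 2.12% of all genes. None was lower (against 2.67%). Bright markers such as Csf1r (-0.04), Cd68 (0.06), Ctss (0.10) and Adgre1 (0.13) did not pass. The median change of the 16 was 0.16, or 0.50 with the RNA measure described next in the model. Laptm5 was higher at its dimmer probe set (0.41). The summed linear intensity of the 16 markers ran from 21721 to 24489 in congenic rats and from 18204 to 21537 in S rats. Lyz2, a called marker, was the brightest of the 16 (mean 13.07 on the log2 scale) and weighs most in these sums. The sums are therefore not separate from its call. Cd163, 1 of the 16, lay below the lower quartile. The pan-leukocyte marker Ptprc had a change of 0.32 at its brightest probe set (limma adjusted p = 0.0537) and rose by 0.84 at its other one (limma adjusted p = 0.00596). In both, all congenic values lay above all S values, as in 12.7% of all probe sets. Of 9 measured T cell markers Cd4 alone passed, which macrophages also express, while Cd3e (-0.03) and Cd8a (-0.01) did not, and the summed T cell level ran from 1371 to 1461 in congenic and from 1286 to 1486 in S rats. None of 6 NK cell markers passed, with sums of 353 to 368 in congenic and 316 to 330 in S rats and the defining Ncr1 at a mean of 5.08 in congenic and 5.02 in S rats, below the lower quartile. None of the B cell, neutrophil, plasmacytoid dendritic cell, endothelial or kidney epithelial markers passed. Of the 4 listed plasmacytoid dendritic cell markers only 2, Tcf4 and Il3ra, were measured, and Siglech and Ccr9 were not. These 2 summed to 1208 to 1389 in congenic and 1396 to 1463 in S rats. Whether their signal in whole kidney came from such cells was not tested, so the sums give no level of that cell type. The part of cell content in the changes of Irf1, Irf8, Ifngr1 or the GTPases was not tested.

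A measure of RNA quality also moved with the groups. It is the log2 signal at the 3′ end minus that at the 5′ end of the beta-actin and Gapdh control transcripts, averaged, and is read as a sign of RNA breakdown where it is large. It was 1.12 ± 0.13 in congenic and 1.79 ± 0.28 in S rats (SD, n = 3, two-sided exact permutation p = 0.1, which is the least this design can reach), without overlap. With this measure as a term in limma's model 0 of 31042 probe sets passed, with 2292 at an unadjusted p under 0.05. The log2 changes were then 0.74 for Igtp at its called probe set, 0.43 for Irf1, 0.26 for Ifngr1, 0.22 for Ifnar1, 0.20 for Jak2, 0.16 for Irgm, 0.09 for Ifngr2 and 0.08 for Jak1. None of the 8 passed, and the part of RNA quality in them was not tested further. For Irf1 the value with the term was no smaller than without it, and for the called probe set of Jak1 it was close to 0. Gbp2 stood at 0.60 with the term and 0.23 without. Over all 54 probe sets 42 had a positive change with the term and 34 without it, with medians of 0.11 and 0.07. The term itself separates the groups, which widens the errors, as for Irf1 with an SE of 0.13 with the term and 0.07 without.

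**Figure D4:**
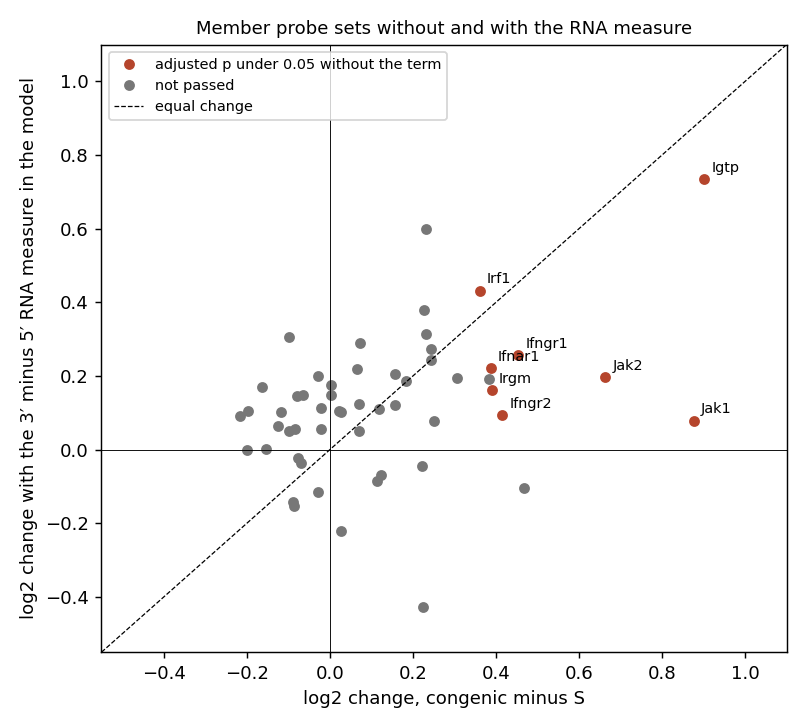
Log2 change of the 54 member probe sets without (x axis) and with (y axis) the 3′ minus 5′ RNA measure in limma's model. Of the called probe sets Irf1 (0.36 and 0.43) lies nearest to the line of equal change and Igtp (0.90 and 0.74) is the highest with the term, and Jak1 (0.88 and 0.08) and Jak2 (0.66 and 0.20) lie far below it.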

How the data were processed

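Probe set values for 6 kidneys, 1 array per rat, were used as deposited by the authors, on a log2 scale (3.76 to 15.1). The log2 scale was inferred from their range, and array medians lay between 7.48 and 7.51. Their summarisation and normalization were not given in the sources used here. Trizol RNA, per the labels' protocols, was hybridised as biotinylated cRNA, and per the series' design text the authors adjusted p-values by Benjamini-Hochberg in R 2.8.1. Of 31099 probe sets 57 controls were left out. Symbols came from the platform annotation, updated by Entrez identifier to the RefSeq table of GRCr8; 20826 of 31042 probe sets had 1 symbol, 436 several and 9780 none here. The test was limma 3.58.1 (R 4.3.3; lmFit and eBayes, two-sided, adjusted p under 0.05 over all probe sets, 4 residual and 8.49 total degrees of freedom), which was also tested on simulated data. Promoters were searched with Python 3.11.15 and figures drawn with matplotlib 3.10.9.

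The members and lists were chosen with earlier results of these data known. Every member is named. Values in each rat were given by rule for called probe sets and, in each role, for the member with the largest change and the brightest member, and for up to 6 other pathway genes with a called probe set, by smallest p. For Tyk2 and Ifnar2 the changes alone are given. Gbp2, Ifit2, Bst2, Ifng and Ifnb1 were given values beyond the rule after these were seen. No 2 arrays were identical, and array correlations lay between 0.985 and 0.998. The alternatives tried were median centring and quantile normalization, leaving out the dimmest probe sets (up to percentile 40), limma's trend, robust and unmoderated variances, weights per array, a block for the rat's number, 1 probe set per gene, the RNA measure as a term, and the fit without each rat in turn.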

Additional observations from a re-analysis of the deposited data

How the results depend on the processing

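The 8 calls among member probe sets became 15 with array weights, 4 with 1 probe set per gene, 3 with the replicate block, and 0 with an unmoderated test (16 member probe sets at an unadjusted p under 0.05) or with the RNA measure as a term (3 at an unadjusted p under 0.05). Leaving out 1 rat gave 0 to 10 higher and 0 to 1 lower, the 1 lower being Ifit2 without S rat 1. For the other pathway genes the 7 higher became 15 with array weights (and 3 lower), 4, 2, 0 and 0 in the same order of settings, and 0 to 9 higher and 0 to 2 lower without 1 rat. Calls over all probe sets, 1862, became 6077 with array weights, 666 with 1 probe set per gene, 658 with the replicate block, 0 unmoderated (6166 at an unadjusted p under 0.05) and 0 with the RNA term, and 0 to 4752 without 1 rat. Quantile normalization, median centring, the intensity filter, the intensity trend and robust eBayes kept each of these counts within 1.5 times. The member median stayed positive under every alternative run, from 0.02 to 0.11. Same-numbered rats did not deviate together (correlations of -0.01, -0.18 and -0.14). The labels do not say which rats shared a cage, or whether the number marks it.

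The called probe set of Igtp passed in 11 of 15 alternatives, that of Irf1 and Ifngr1 in 9 of 16 each, and that of Ifngr2 in 6 of 14. No called value changed sign under any alternative run. With 3 rats a group, a change that missed the threshold, such as those of Irf8 or Socs3, is not shown to be 0.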
